A study of Mus musculus with 12 samples.

Results

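The nuclear-encoded subunits of the respiratory chain were followed in single haematopoietic stem cells (HSC) of the mouse from 3 tissues. Members were chosen by gene symbol alone: names that begin with Ndufa, Ndufb, Ndufc, Ndufs, Ndufv, Uqcr, Cox4 to Cox8 or Atp5, together with Sdha, Sdhb, Sdhc and Sdhd. Names with Ndufaf, -ps or Rik were left out, which removed 9 symbols. This gave 84 of the 22307 gene symbols in the count tables, all of them annotated as protein coding where a position was found (83 of 84 had one in GENCODE's annotation of GRCm38, the build also called mm10). Complex I had 36 members, complex II 4, complex III 8, complex IV 19 and complex V 17. Cyc1, the cytochrome c1 subunit of complex III, does not match the rule, so the values of complex III leave it out. Ndufa4 and Ndufa4l2 were placed in complex IV, since Ndufa4 was first assigned to complex I and later found in cytochrome c oxidase.

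Complex I takes electrons from NADH and complex II from succinate, both pass them through ubiquinone to complex III, cytochrome c carries them on to complex IV, and complex IV hands them to oxygen. Complexes I, III and IV pump protons as they do so, and complex V, the ATP synthase, uses the return of the protons to make ATP. The mitochondrial genome encodes a few core subunits of every complex except complex II, which is wholly nuclear, and stem cells of adult marrow are known for a low rate of respiration.

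Each cell was sorted into its own well, and its nucleus was taken off on magnetic beads. The cytoplasmic polyadenylated RNA was sequenced with unique molecular identifiers (UMIs), which are meant to count each captured molecule once. Whether they did so alike on every plate was not tested. The design text of the series names DARLIN and Cas9/CARLIN mice, lines that carry an editable DNA barcode for lineage tracing, but the labels do not say which line, age, sex or sort markers the cells of a plate had. The groups were 2 plates labelled HSC from the aorta-gonad-mesonephros region (AGM, where the first stem cells arise in the embryo), 5 plates labelled HSC from fetal liver and 5 plates labelled HSC from bone marrow. Plates share origin codes: both AGM plates carry 1 code, plates 1 to 3 and plates 4 and 5 of fetal liver carry 1 each, and so do plates 1 to 3 and plates 4 and 5 of bone marrow. What a code stands for, 1 animal or several, is not in the labels, and plates 4 and 5 of bone marrow have their tissue from the title only. UMIs were summed per code into 5 libraries for the tests. The p-values rest on the spread between codes within fetal liver and within bone marrow, with an estimate shared over genes. AGM has 1 code, so no spread between AGM codes was measured, and its comparisons borrow that of the other tissues.

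The promoters of 3 of the 4 members that passed a test (Cox6b2, Sdhb and Uqcrh) are shown first, with that of Cox6b1 because it encodes the common isoform beside Cox6b2. They are RefSeq's 250 bases before to 50 after the gene start, on build GRCm38.p6, 5′ to 3′ on the strand of the gene. Capitals mark matches, on either strand, to the cores of the NRF1 motif (GCGCATGC), the ETS motif (CCGGAAG), the YY1 motif (AAGATGG) and the TATA box (TATAAA).
Cox6b2, chr7:4753045-4753344, minus strand: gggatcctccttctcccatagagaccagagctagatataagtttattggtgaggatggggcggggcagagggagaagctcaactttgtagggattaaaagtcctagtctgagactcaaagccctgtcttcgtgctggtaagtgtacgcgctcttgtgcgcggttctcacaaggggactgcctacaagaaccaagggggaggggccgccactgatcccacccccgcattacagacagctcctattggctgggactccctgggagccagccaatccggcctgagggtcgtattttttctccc
Cox6b1, chr7:30626065-30626364, minus strand: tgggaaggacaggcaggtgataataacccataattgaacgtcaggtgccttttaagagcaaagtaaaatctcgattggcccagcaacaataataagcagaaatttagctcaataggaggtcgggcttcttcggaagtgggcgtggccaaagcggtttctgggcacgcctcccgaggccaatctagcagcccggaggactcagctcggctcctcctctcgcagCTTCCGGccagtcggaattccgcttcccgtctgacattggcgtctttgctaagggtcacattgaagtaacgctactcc
Sdhb, chr4:140961021-140961320, plus strand: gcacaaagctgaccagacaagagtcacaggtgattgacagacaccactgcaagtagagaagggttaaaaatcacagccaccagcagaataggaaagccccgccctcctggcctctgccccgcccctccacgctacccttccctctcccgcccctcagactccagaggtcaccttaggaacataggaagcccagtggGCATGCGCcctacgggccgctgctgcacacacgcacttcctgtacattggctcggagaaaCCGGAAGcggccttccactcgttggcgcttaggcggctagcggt
Uqcrh, chr4:116075021-116075320, minus strand: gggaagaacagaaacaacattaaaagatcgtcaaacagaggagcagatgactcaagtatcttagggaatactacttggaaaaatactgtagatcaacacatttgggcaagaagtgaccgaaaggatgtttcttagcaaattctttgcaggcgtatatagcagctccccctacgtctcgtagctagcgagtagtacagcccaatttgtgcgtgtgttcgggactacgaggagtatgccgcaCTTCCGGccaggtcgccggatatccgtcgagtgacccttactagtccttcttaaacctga
The window of Cox6b2 held no match, those of Cox6b1 and Uqcrh held 1 ETS core each, and that of Sdhb held 1 NRF1 core and 1 ETS core. Over the 73 promoters found for 68 member genes, 13.7% held the NRF1 core, against 2.71% of 32851 promoters of all genes. The ETS core was in 23.3% of the members' promoters, against 8.86% of all promoters, and the YY1 core in 13.7%, against 6.34%. TATAAA was in 12.3% of the members' promoters and in 13.6% of all promoters. These are letter matches in a fixed window and not sites of binding.

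Of 1152 wells 1020 were kept as cells, namely 143 AGM, 454 fetal liver and 423 bone marrow cells. The plates held 2596681 to 15977740 UMIs, and the median cell of a plate 29964 to 165904 UMIs, with AGM the deepest. A gene detected in a cell had a median of 18 UMIs on bone marrow plate 1 and of 2 to 10 UMIs on the other plates. All 11 stem cell markers had UMIs in every tissue, which alone does not show that each cell is a stem cell. Their summed level was 1166 to 1175 CPM (UMIs per 1000000 UMIs, scaled as given below) on AGM plates. On fetal liver plates it was 1346 to 1530 and on bone marrow plates 1620 to 1849. Of these markers, 6 were higher in fetal liver than in AGM. In bone marrow 6 were higher and 1 lower than in AGM, and 2 higher and 1 lower than in fetal liver. Of 14 endothelial markers, 10 were lower in fetal liver than in AGM and 12 lower in bone marrow than in AGM, with summed levels of 1816 to 2271 CPM on AGM plates, 839 to 1164 on fetal liver plates and 369 to 665 on bone marrow plates. Cdh5, Flt1, Plvap and Mmrn2 were at 0 in bone marrow. Erythroid markers summed to 159 to 228 CPM on AGM plates, 44.6 to 2283 CPM on fetal liver plates and 202 to 407 CPM on bone marrow plates. Macrophage markers summed to 330.4 to 340.1, 564 to 761 and 522 to 771 CPM on the plates of AGM, fetal liver and bone marrow, megakaryocyte markers to 233 to 240.1, 132 to 246 and 178 to 372, and B lymphoid markers to 39.9 to 41.4, 122 to 148 and 61.6 to 79.6. Stromal and muscle markers summed to 52.3 to 66.4, 0 to 2.33 and 0.613 to 13.2 CPM, and hepatocyte markers to 6.44 to 17.8, 14.7 to 37.3 and 23.4 to 74.9 CPM. The part of these differences in the values of the respiratory genes was not tested. All 12 plates used the same 96 well barcodes, and no wells held identical counts.

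Respiratory transcripts took a smaller share of the RNA of bone marrow cells than of the other cells. The median cell held 45002 and 46529 UMIs of the 84 members per 1000000 UMIs on the AGM plates. On the fetal liver plates it held 48106, 46029, 49446, 44612 and 51214, and on the bone marrow plates 40487, 41694, 38788, 35569.8 and 37456. The means over plates were 45765 ± 1080 for AGM (SD, n = 2), 47882 ± 2632 for fetal liver (SD, n = 5) and 38799 ± 2422 for bone marrow (SD, n = 5). Bone marrow thus stood at 0.810 times the fetal liver mean and at 0.848 times the AGM mean, with every bone marrow plate below every plate of the other tissues. Fetal liver stood at 1.05 times AGM, and the plates of the pair overlapped. These levels are shares of a cell's RNA, so fewer respiratory transcripts per cell and more of other transcripts cannot be told apart. No test was run on them, since the list was made with results known.

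Complex II, which feeds electrons from the citric acid cycle into the chain, was the complex with the widest gap. Its 4 genes summed to 572, 602, 636, 462 and 501 UMIs per 1000000 on the bone marrow plates, against 990.2, 844, 883, 881 and 1044 on the fetal liver plates. The AGM plates had 804 and 853. Every bone marrow plate thus lay below every other plate, and the bone marrow mean was 0.597 times that of fetal liver and 0.669 times that of AGM.
The other complexes moved less. In complex I the means were 11954 ± 903 in bone marrow and 14610 ± 699 in fetal liver, a ratio of 0.818. In complex V they were 10795 ± 576 in bone marrow and 13673 ± 667 in fetal liver, a ratio of 0.790. Complex IV stood at 11102 ± 457 in bone marrow and 13330 ± 735 in fetal liver, a ratio of 0.833 (SD, n = 5 plates each in all of these). In all 3 every bone marrow plate lay below every fetal liver plate on this scale. Complex III had the smallest gap, with 4280 ± 217 in bone marrow and 4966 ± 336 in fetal liver, a ratio of 0.862. It was the 1 complex in which plates of this pair overlapped, since bone marrow plate 1 (4471) exceeded fetal liver plate 2 (4446). In AGM, complexes I to V stood at 14485 ± 218, 828 ± 34.7, 4874 ± 189, 12386 ± 75.4 and 13465 ± 106 UMIs per 1000000 (SD, n = 2). On this scale both AGM plates lay above all bone marrow plates in all 5 complexes, and they overlapped with the fetal liver plates in each.

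**Figure D1:**
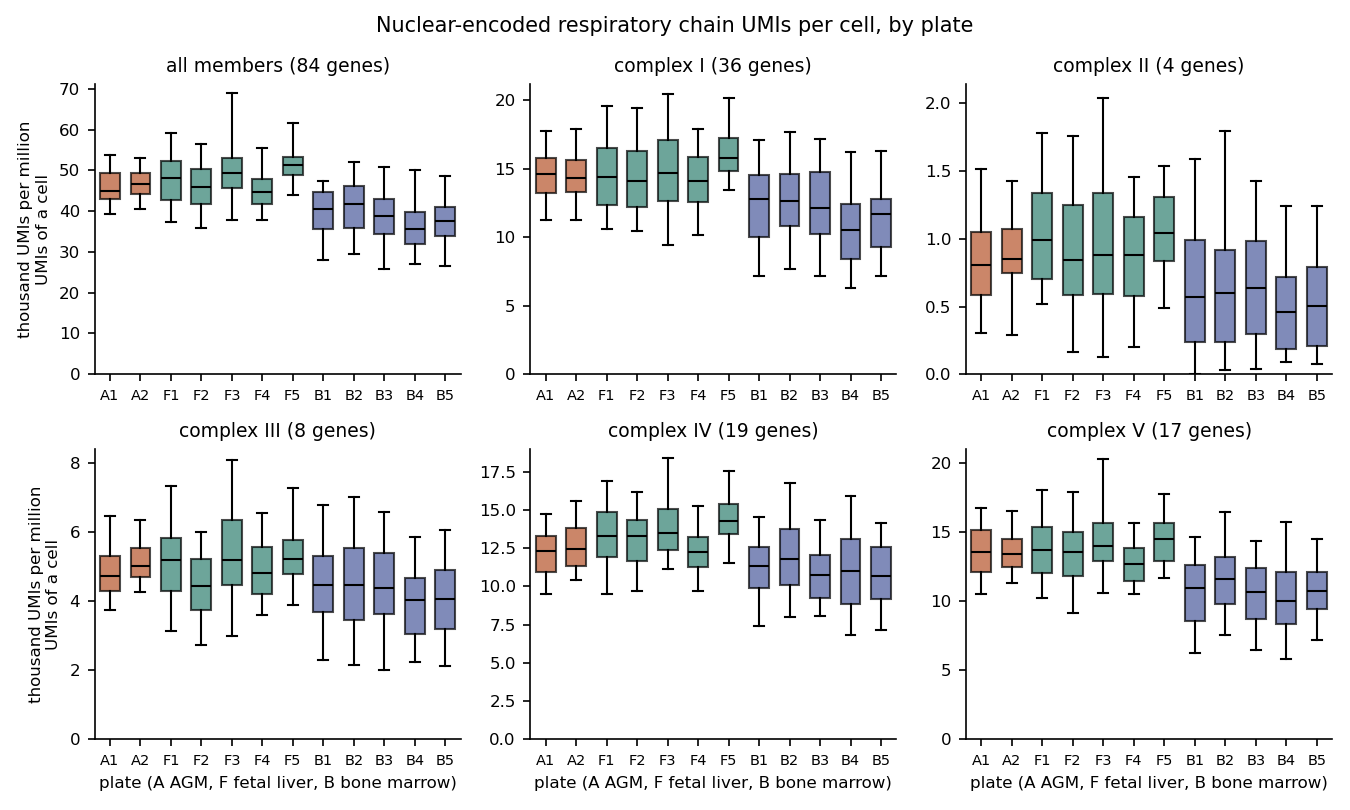
Level of the respiratory genes per cell on each plate (AGM plates A1 and A2, fetal liver F1 to F5, bone marrow B1 to B5), for all 84 members and for complexes I to V, in units of 1000 UMIs per 1000000 UMIs of the cell. Boxes span the quartiles of the cells, the line is the median and whiskers run from the 5th to the 95th percentile. The bone marrow medians for all members (35569.8 to 41694) lie below those of fetal liver (44612 to 51214), and the gap is widest for complex II.

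The AGM comparisons depended on the scale. The normalization by trimmed mean of M values (TMM) gave the AGM library a factor of 1.15, and cytosolic ribosomal protein genes took 166663 and 177508 UMIs per 1000000 of the median cell on AGM plates, 227691 to 299898 on fetal liver plates and 225704 to 362474 on bone marrow plates. With plate TMM factors applied, a setting chosen after seeing the data, all members stood at 49194 in fetal liver and 40023 in AGM, without overlap of plates. On that scale bone marrow, at 39982, overlapped with AGM, at 40023. With the mitochondrial and ribosomal protein genes taken out of the total, fetal liver (64115) again stood above AGM (56715) without overlap, while bone marrow (53974) and AGM (56715) overlapped. Bone marrow stayed below fetal liver without overlap on each scale, at 39982 against 49194 and at 53974 against 64115. Among the complexes, complex II in bone marrow stayed below AGM without overlap on each scale, by 0.58, 0.35 and 0.41 on the log2 scale for the plain share, the plate TMM factor and the reduced total. Complex IV changed sides, with bone marrow above AGM by 0.083 with plate TMM factors and by 0.058 over the reduced total, where the plain share had it below. Complex III changed sides with plate TMM factors (0.050), and complexes III and IV overlapped between bone marrow and AGM on both of these scales. Complexes I and V overlapped with AGM with plate TMM factors only. In complex IV bone marrow and fetal liver plates also overlapped on both, up to 12825 in bone marrow and from 11726 in fetal liver with plate TMM factors, and up to 17248 in bone marrow and from 16092 in fetal liver over the reduced total.

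Within the chain, with Ndufa4 counted in complex IV, the shares of complexes I and V overlapped between tissues. Complexes II, III and IV each set a tissue apart. Complex I made up 29.2% to 32.3% of the members' UMIs on a plate and complex V 26.7% to 29.5%. Complex III made up 9.60% to 10.58% on fetal liver plates. Both AGM plates (10.62% and 11.02%) and all bone marrow plates (10.81% to 11.07%) lay above. Complex IV made up 26.5% and 26.7% on AGM plates, below all fetal liver plates (27.5% to 28.3%) and all bone marrow plates (27.4% to 29.6%). Complex II made up 1.83% of the members' UMIs in AGM cells, 1.96% in fetal liver cells and 1.47% in bone marrow cells (means of 2, 5 and 5 plates). Its bone marrow plates, at 1.32% to 1.75%, lay below all fetal liver plates (1.79% to 2.10%) and both AGM plates (1.78% and 1.88%).

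Gene by gene, few members passed a test that runs over all genes. CPM here are UMIs per 1000000 after TMM scaling, and a gene was called at an adjusted p under 0.05 in edgeR's quasi-likelihood test with Benjamini-Hochberg adjustment over 15472 genes. Of the 84 members 81 passed the filter on low counts. The 3 others were Cox7b2 with 1 UMI, Ndufa4l2 with 5 UMIs and Cox8b with 7 UMIs in all cells, so the counts below do not cover all members. In fetal liver against AGM 1 member was called, higher, where 4.83% of all tested genes were called. Bone marrow against fetal liver had 3 called members, all lower, where 4.73% of all genes were called. Bone marrow against AGM had 1, higher, where 8.92% of all genes were called. The members called made up 1.23%, 3.70% and 1.23% of those tested, in the same order, which is below the share of all genes. All genes include many of low level, while 78 members reached 50 CPM in each comparison. Of the 3816, 3744 and 3954 genes that did so, 11.11%, 12.13% and 21.02% were called. The share of called members was thus further below that of well expressed genes. Each pair of comparisons shares a tissue's libraries, and their values are therefore not independent of one another.

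The members nevertheless leaned to one side. In fetal liver against AGM 70 had a positive log2 fold change and 10 a negative one, with a median of 0.27 and quartiles of 0.15 and 0.39. Bone marrow against fetal liver had 7 positive and 74 negative members, with a median of −0.31 and quartiles of −0.49 and −0.11. Bone marrow against AGM had 34 positive and 47 negative members, with a median of −0.08. Over all tested genes 51.8%, 49.7% and 51.3% were positive, with medians of 0.05, 0 and 0.04. At a p under 0.05 without adjustment 9 members stood out in fetal liver against AGM (11.1%, where all genes gave 15.4%). Bone marrow against fetal liver gave 28 members (34.6%, where all genes gave 16.6%), and bone marrow against AGM gave 9 (11.1%, where all genes gave 20.6%). These shares of all genes are not matched for level, and none was taken over well expressed genes alone. Whether 34.6% exceeds the share among genes of like level was therefore not tested. The tilt towards lower values in bone marrow than in fetal liver was thus spread over many members by small amounts.

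The plates were also compared one by one. In fetal liver against AGM 45 members had every fetal liver plate above both AGM plates, a pattern found in 11.9% of all tested genes, and none had every plate below (14.7% of all genes). For 24 members every bone marrow plate was below every fetal liver plate (4.46% of all genes), and none had every plate above (3.55%). Against AGM 12 members lay above (10.7% of all genes) and 21 below (15.2%). Well expressed genes separate more often: among 3338 genes of at least 50 CPM, 44.04%, 19.02% and 43.59% had plates that did not overlap in either direction, beside 55.56%, 29.63% and 40.74% of the members.
With library size in place of TMM, the median of all genes in fetal liver against AGM shifted to −0.16, 48 members were positive and 32 negative, and their median of 0.04 stood 0.20 above that of all genes. On that scale 4 members were positive and 77 negative in bone marrow against fetal liver.

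**Figure D2:**
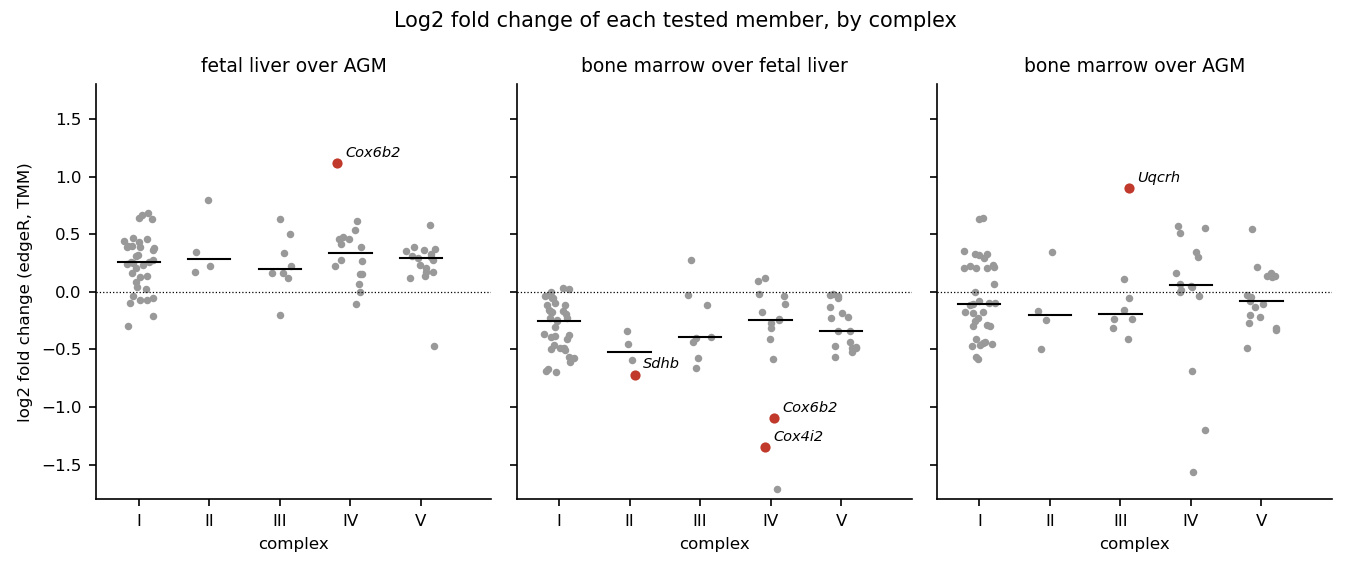
Log2 fold change of each tested member by complex in fetal liver against AGM, bone marrow against fetal liver and bone marrow against AGM, from edgeR on 5 libraries. Dots are members, black bars the median of a complex, and red dots are called and named. Cox6a2 (6.91 in both bone marrow comparisons, not called) lies outside the axis, and the 3 untested members are not drawn. The middle panel has 74 of 81 members below 0.

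Complex I, the NADH dehydrogenase, had no member called by edgeR in any comparison, while DESeq2 called 0, 4 and 0 of its members in fetal liver against AGM, bone marrow against fetal liver and bone marrow against AGM. Without adjustment 4, 11 and 3 of its 36 members had a p under 0.05 in edgeR. Its median log2 fold change was 0.26 in fetal liver against AGM (29 of 36 positive), −0.25 in bone marrow against fetal liver (3 of 36 positive) and −0.10 in bone marrow against AGM (14 of 36 positive). The 7 nuclear core subunits, which carry the flavin and the iron-sulfur clusters, had a median of −0.49 in bone marrow against fetal liver, with 0 of 7 positive. The 29 accessory subunits had a median of −0.23, with 3 positive. The members named in this and the next paragraphs beyond the called genes, the most abundant ones, complex II and the isoform pairs were chosen after their values were seen.
Ndufs6, a zinc-binding accessory subunit, came nearest to a call. It had 389, 349.7, 369, 384 and 258 CPM on bone marrow plates, against 513, 539.6, 609.9, 474 and 750.4 CPM on fetal liver plates. The groups did not overlap, and the log2 fold change was −0.69 ± 0.20 (adjusted p = 0.0512). The gene overlaps Mrpl36, so their reads may be shared.
Ndufv2, an iron-sulfur core subunit, had 257 and 277 CPM on AGM plates, 395, 394, 431, 384 and 491 CPM on fetal liver plates and 248, 209.8, 251, 259 and 288 CPM on bone marrow plates. Fetal liver thus stood above both other tissues on every plate, with log2 fold changes of −0.67 ± 0.20 for bone marrow against fetal liver (adjusted p = 0.0652) and 0.66 ± 0.25 for fetal liver against AGM (adjusted p = 0.167). Ndufa9, an accessory subunit near the quinone site, had a log2 fold change of −0.70 ± 0.23 in bone marrow against fetal liver (adjusted p = 0.0970), with 68.4 to 91.9 CPM on bone marrow plates and 114 to 148 CPM on fetal liver plates.
Ndufb10, an accessory subunit of the membrane arm, had another pattern. It had 257 and 246 CPM on AGM plates, below all others, 335, 419.6, 417, 364 and 544 CPM on fetal liver plates and 448, 408, 379, 368 and 337 CPM on bone marrow plates, which overlapped with fetal liver (bone marrow against AGM 0.63 ± 0.25, adjusted p = 0.142).
The most abundant genes of complex I, Ndufa2 and Ndufa3, differed little: Ndufa2 averaged 789 CPM in AGM cells, 909 in fetal liver cells and 925 in bone marrow cells, and its log2 fold change in bone marrow against fetal liver was 0.02 ± 0.20.

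Complex II held the called gene Sdhb, the iron-sulfur subunit of succinate dehydrogenase (chromosome 4, 140961203 to 140979193, plus strand). It had 223, 243, 253, 188 and 201 CPM on bone marrow plates, against 382, 346, 429, 301 and 406 CPM on fetal liver plates. On AGM plates it had 309 and 320.3 CPM. All bone marrow plates lay below all others. Sdhb was lower in bone marrow than in fetal liver by edgeR (log2 fold change −0.72 ± 0.21, adjusted p = 0.0494), while against AGM the change of −0.49 ± 0.25 was not called (adjusted p = 0.268). The call lay at the threshold and held in 7 of 25 alternatives. Leaving out any 1 plate other than fetal liver plate 1 ended it (adjusted p = 0.0507 to 0.295), and so did leaving out the first (0.469) or the second fetal liver code (0.178).
Sdhd, a membrane anchor of the complex, had 178, 147, 159.8, 182 and 170.0 CPM on bone marrow plates, against 256, 276, 256, 214 and 341 CPM on fetal liver plates. The groups did not overlap (log2 fold change −0.59 ± 0.20, adjusted p = 0.124). Sdhc, the other anchor, was set apart by its AGM value: it had 254, 219.9, 264, 216 and 248 CPM on fetal liver plates, against 129 and 157 CPM on AGM plates (0.80 ± 0.26, adjusted p = 0.0944). On bone marrow plates Sdhc had 156 to 204 CPM, below every fetal liver plate. Sdha, the flavoprotein that binds succinate, had 163, 176, 129, 118 and 124 CPM on bone marrow plates, against 190.1, 169.8, 182, 154 and 219 CPM on fetal liver plates. Its groups overlapped (−0.34 ± 0.22, adjusted p = 0.470). All 4 genes thus had lower values in bone marrow than in fetal liver, with a median log2 fold change of −0.52, and 1 of them passed the test.

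In complex III 1 of 8 members was positive in bone marrow against fetal liver and 2 of 8 in bone marrow against AGM, with medians of −0.39 and −0.20. The 1 called member was among the positive ones. Uqcrh, the hinge protein that lies by cytochrome c1 (chromosome 4, 116066965 to 116075071, minus strand), had 1213, 1348, 1258, 1976 and 1670.1 CPM on bone marrow plates, against 830.2 and 857 CPM on AGM plates. Fetal liver plates had 1120.3, 1263, 1276, 1247 and 1566 CPM. Both AGM plates were thus the lowest of all 12. Uqcrh was higher in bone marrow than in AGM (log2 fold change 0.90 ± 0.27, adjusted p = 0.0435), and the change of 0.63 ± 0.27 in fetal liver against AGM was not called (adjusted p = 0.243). The call held in 10 of 25 alternatives, among them neither library size alone (0.61, adjusted p = 0.135) nor DESeq2's size factors (0.86, adjusted p = 0.0672). It was lost without AGM plate 1, fetal liver plate 2, 3, 4 or 5 or bone marrow plate 2, 4 or 5 (adjusted p = 0.0537 to 0.388) and without the first (0.177) or the second fetal liver code (0.192). The gene overlaps Gm12854 on the other strand, and whether counting used the strand is not given.
Of the core proteins, Uqcrc2 had 65.9 to 95.8 CPM on bone marrow plates, against 98.7 to 146 CPM on fetal liver plates (−0.66 ± 0.24, adjusted p = 0.141). Uqcrc1 had 239 to 282 CPM on bone marrow plates, against 349.6 to 476 CPM on fetal liver plates (−0.58 ± 0.20, adjusted p = 0.121). Both lay below fetal liver on every bone marrow plate, while Uqcrh, in the same complex, had a log2 fold change of 0.27 ± 0.22 in that comparison. Uqcr10, a small subunit, averaged 756 CPM in AGM cells, 958 in fetal liver cells and 730.2 in bone marrow cells and was called in none.

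Complex IV held the remaining called genes, and both encode tissue isoforms. Cox6b2, known as the testis isoform of subunit 6b (chromosome 7, 4751792 to 4753094, minus strand), had 126 and 163 CPM on AGM plates, 328, 279, 199, 268 and 437 CPM on fetal liver plates and 135, 103, 146, 174 and 127 CPM on bone marrow plates. Fetal liver thus stood above both other tissues on every plate, and AGM and bone marrow plates overlapped. Cox6b2 was 2.17-fold higher in fetal liver than in AGM (log2 fold change 1.12 ± 0.27, adjusted p = 0.0159) and 2.14-fold lower in bone marrow than in fetal liver (−1.10 ± 0.21, adjusted p = 0.00306). The difference between bone marrow and AGM was 0.02 ± 0.26. The calls held in 19 and 23 of 25 alternatives. The rise in fetal liver over AGM lost its call without AGM plate 1 (adjusted p = 0.0600), without fetal liver plate 4 (0.227), without the second fetal liver code (0.159), without bone marrow plate 5 (0.0600), with library size alone (0.0962) and with cells thinned to 20000 UMIs (0.0626). The fall in bone marrow lost its call without fetal liver plate 4 (0.100) and without that code (0.0598).
After thinning every cell to 20000 UMIs, Cox6b2 had a UMI in 68.8% of AGM cells (exact 95% interval 60.5% to 76.3%), 80.9% of fetal liver cells (76.8% to 84.6%) and 30.4% of bone marrow cells (25.8% to 35.2%). Without thinning the shares were 95.1% in AGM cells, 90.3% in fetal liver cells and 47.3% in bone marrow cells. AGM and bone marrow thus had like summed levels of Cox6b2 in unlike shares of cells, and all intervals cover counting error only. Thinned bone marrow cells also held fewer genes of any kind (1918, against 3364 in AGM and 3094 in fetal liver, means over plates). The pattern was therefore not shown to be particular to Cox6b2.

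Cox4i2, known as the isoform of subunit 4 found in lung and induced by low oxygen (chromosome 2, 152754173 to 152765037, plus strand), had 18.8, 13.2, 13.3, 6.75 and 51.1 CPM on bone marrow plates, against 67.9, 45.1, 70.7, 49.4 and 93.7 CPM on fetal liver plates. On AGM plates it had 42.6 and 83.1 CPM. Bone marrow plate 5 reached into the range of both other tissues, and the other 4 bone marrow plates lay below every AGM and fetal liver plate. Cox4i2 was 2.55-fold lower in bone marrow than in fetal liver (−1.35 ± 0.37, adjusted p = 0.0373). Against AGM the change was −1.20 ± 0.43 (adjusted p = 0.0914). The call against fetal liver held in 13 of 25 alternatives: without bone marrow plate 5 the change was −2.40 (adjusted p = 0.00427), and without bone marrow plate 4 it was −0.92 (adjusted p = 0.335). It was also lost without fetal liver plate 3, 4 or 5 or bone marrow plate 1, 2 or 3 (adjusted p = 0.0557 to 0.191), without either fetal liver code (0.130 and 0.118) and without the first bone marrow code (0.0995). A single bone marrow cell held 17.2% of the Cox4i2 UMIs of that tissue, and without it the level before scaling was 15.5 per 1000000 UMIs, against 18.6 with it.
At 20000 UMIs per cell, Cox4i2 had a UMI in 36.2% of AGM cells, 34.8% of fetal liver cells and 7.40% of bone marrow cells. Its share of the UMIs of both subunit 4 genes was 1.40%, 0.796%, 0.970%, 0.344% and 3.14% on bone marrow plates, against 4.77%, 2.60%, 4.56%, 3.76% and 4.71% on fetal liver plates. Bone marrow plate 5 exceeded fetal liver plate 2, so these groups overlapped, while the AGM plates, at 3.69% and 7.35%, lay above all bone marrow plates.

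**Figure D3:**
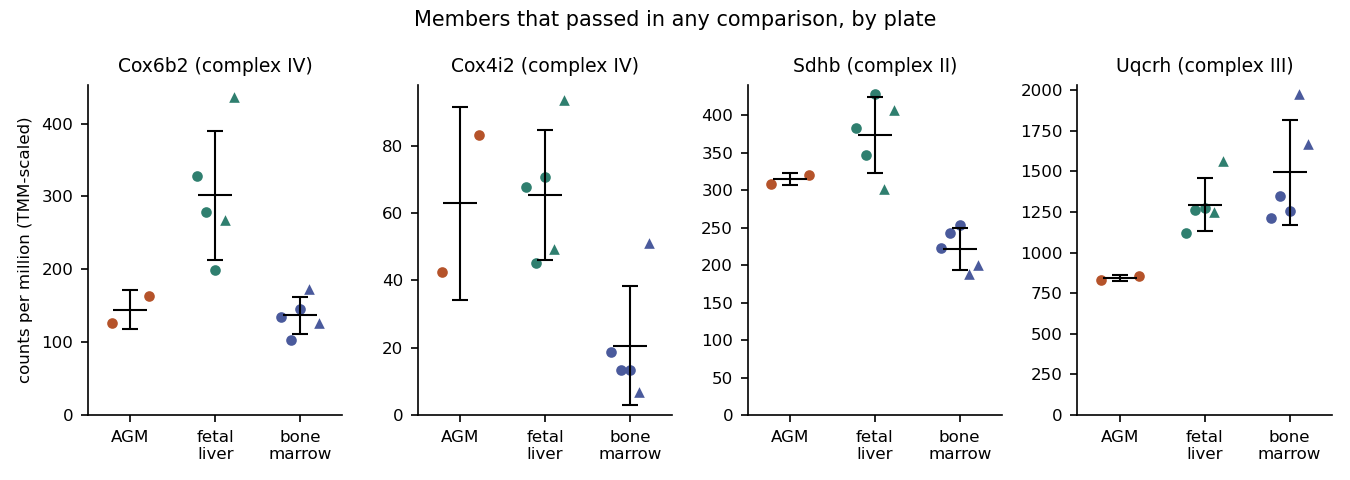
CPM of the 4 called members, Cox6b2, Cox4i2, Sdhb and Uqcrh, on each plate of AGM, fetal liver and bone marrow. Circles are plates of the first origin code of a tissue, triangles those of the second, and bars are the mean ± SD over plates. Cox6b2 stands highest on the 5 fetal liver plates (199 to 437 CPM), Sdhb lowest on the 5 bone marrow plates (188 to 253 CPM), and Cox4i2 on bone marrow plate 5 (51.1 CPM) stands apart from the other bone marrow plates.

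Neither ubiquitous partner of these isoforms was called. Cox4i1 averaged 1078 CPM in AGM cells, 1479 in fetal liver cells and 1603 in bone marrow cells, with a log2 fold change of 0.12 ± 0.20 in bone marrow against fetal liver (adjusted p = 0.847). Cox6b1 averaged 1065 CPM in AGM cells, 1418 in fetal liver cells and 1195 in bone marrow cells (−0.25 ± 0.20, adjusted p = 0.590). Cox6b2 made up 10.4% and 13.3% of the UMIs of both subunit 6b genes on AGM plates, 11.8% to 19.6% on fetal liver plates and 7.66% to 12.9% on bone marrow plates, and these shares overlapped between tissues.
The isoforms known from heart and skeletal muscle were close to absent. Cox6a2 had 42 UMIs, all on bone marrow plate 1, and made up 0.452% of the subunit 6a UMIs there. Its fitted log2 fold changes of 6.91, which depend on the prior count and are no bound, were not called (adjusted p = 0.451 against fetal liver and 0.490 against AGM). Cox8b had 7 UMIs, also on bone marrow plate 1. Cox7a1 had 7.34 and 0 CPM on AGM plates, 4.15, 4.95, 9.64, 3.76 and 6.33 CPM on fetal liver plates and 0.0978, 0, 0, 0 and 5.51 CPM on bone marrow plates. Ndufa4l2, which low oxygen is known to induce, had 5 UMIs, all in fetal liver, and the testis isoform Cox7b2 had 1.
The most abundant genes of complex IV were Cox8a and Cox4i1. Cox8a, a small structural subunit, averaged 1105 CPM in AGM cells, 1600.1 in fetal liver cells and 1577 in bone marrow cells, and both AGM plates lay below all others. Ndufa4 averaged 901 CPM in AGM cells, 1376 in fetal liver cells and 1110.0 in bone marrow cells. Neither was called in a comparison. The complex had a median log2 fold change of 0.33 in fetal liver against AGM (14 of 16 positive), −0.24 in bone marrow against fetal liver (3 of 16) and 0.06 in bone marrow against AGM (11 of 16).

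Complex V, the ATP synthase, had no member called by edgeR (1, 7 and 1 at an unadjusted p under 0.05 in the 3 comparisons, and 0, 1 and 0 called by DESeq2). No tested member of it was positive in bone marrow against fetal liver (0 of 17, median −0.34). In fetal liver against AGM 16 of 17 were positive, with a median of 0.30. Atp5b, the catalytic beta subunit of the head, had 614, 691, 677, 804 and 813 CPM on bone marrow plates, against 1014, 1134, 964, 1005 and 991 CPM on fetal liver plates, without overlap (−0.47 ± 0.20, adjusted p = 0.234). AGM plates had 808 and 768 CPM, within the range of bone marrow. Atp5a1, the alpha subunit, showed the same order, with 457 to 675 CPM on bone marrow plates, against 698 to 859 CPM on fetal liver plates (−0.43 ± 0.20, adjusted p = 0.290). Atp5e, the small epsilon subunit and the most abundant member of the complex, averaged 1105 CPM in AGM cells, 1647 in fetal liver cells and 1616 in bone marrow cells, so that its bone marrow value stayed near that of fetal liver (−0.03 ± 0.21, adjusted p = 0.984). The 3 genes that encode the same c subunit of the membrane ring kept their proportions: Atp5g1, Atp5g2 and Atp5g3 made up 49.2%, 23.0% and 27.8% of their summed UMIs in AGM, 48.2%, 23.2% and 28.6% in fetal liver and 51.6%, 21.3% and 27.1% in bone marrow (means over plates), with overlap in every pair.

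Across the chain, abundance went with the change. Over 77 members of at least 50 CPM, Spearman's rho between the mean level and the log2 fold change was 0.32 in fetal liver against AGM, 0.52 in bone marrow against fetal liver and 0.60 in bone marrow against AGM. Over the 3338 genes of at least 50 CPM it was 0.17, −0.06 and 0.08. Members with a greater annotated length had lower values in bone marrow against fetal liver (rho −0.42 over 76 members), where all genes had a rho of 0.19. The length is that of the longest annotated coding transcript of a gene, which need not be the one expressed in these cells. The points share libraries and depth, length and level were themselves related among members (rho −0.46), and the values are given as a description. The mean level was taken over all 5 libraries, including those compared, so level and change share values. The low values of bone marrow tended to be strongest among less abundant members such as Sdhb, Ndufa9 and Uqcrc2. They were weakest among the most abundant, such as Cox8a, Cox4i1 and Atp5e. Sdha, less abundant than Sdhb, fell less in bone marrow against fetal liver (−0.34).

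**Figure D4:**
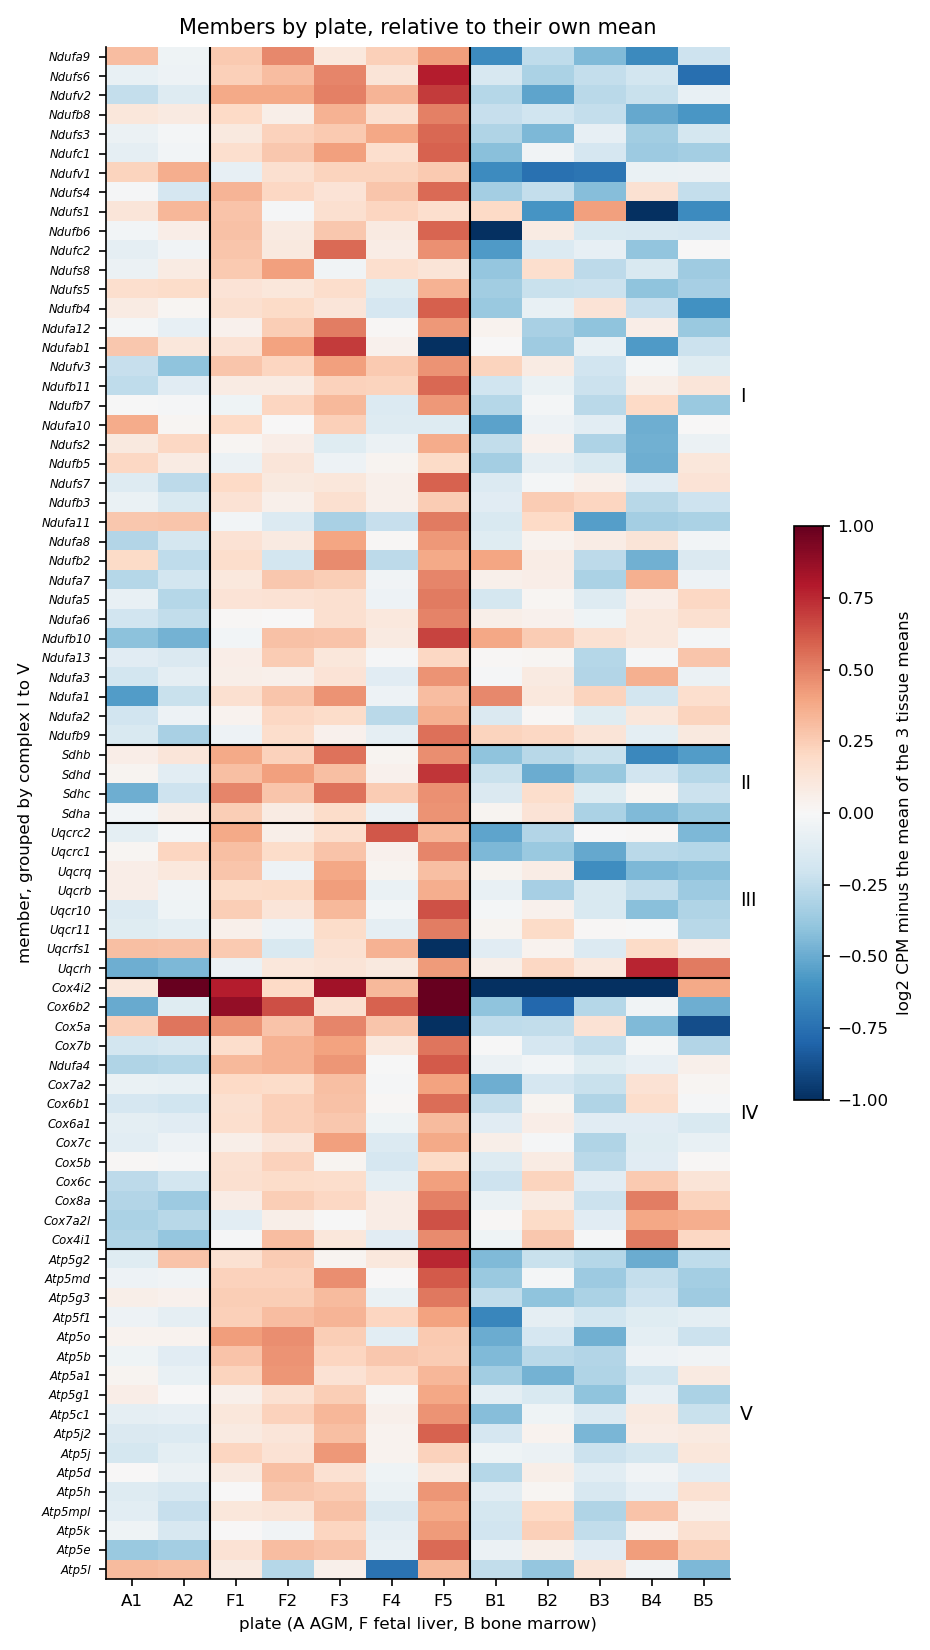
Level of 79 members with at least 1000 UMIs on each of the 12 plates, as log2 CPM minus the mean of the 3 tissue means. Columns are plates of AGM, fetal liver and bone marrow, members are grouped by complex and ordered by the log2 fold change in bone marrow against fetal liver, and the colour runs from −1 to 1. Fetal liver columns are the highest for most members, and fetal liver plate 5 shows 3 members (Ndufab1, Uqcrfs1 and Cox5a) far below the other plates of its tissue.

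Fetal liver plate 5 stood apart within its tissue in 3 members. Ndufab1, the mitochondrial acyl carrier protein and a subunit of complex I, had 173 CPM there and 366 to 575 CPM on the other fetal liver plates. Uqcrfs1, the Rieske iron-sulfur protein of complex III, had 64.3 CPM there and 254 to 359 CPM on the others. Cox5a, a structural subunit of complex IV, had 61.0 CPM there and 249 to 288 CPM on the others, and bone marrow plate 5, with 111 CPM, was the lowest of its tissue. Other members were high on that plate, such as Cox7a2l, a factor of supercomplex assembly, with 1130.1 CPM. Without fetal liver plate 5 the members' median log2 fold change was 0.21 in fetal liver against AGM and −0.22 in bone marrow against fetal liver, and 1 member was called in each of these.

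The cells of a plate also varied among themselves. The coefficient of variation of the summed level of all members over cells was 10.6% and 8.33% on AGM plates, 11.1% to 18.9% on fetal liver plates and 16.4% to 19.4% on bone marrow plates. Counting alone would give 1.30% to 3.28% if each UMI were a separate molecule. Within plates the complexes went together to varying degrees: Spearman's rho over the 48 to 96 cells of a plate was 0.22 to 0.73 between complexes IV and V, 0.20 to 0.56 between I and V, 0.20 to 0.55 between III and IV and 0.16 to 0.45 between I and III. It was 0.097 to 0.54 between III and V and −0.025 to 0.50 between I and IV, with the lowest value on an AGM plate. Complex II, with few UMIs per cell, had rho between −0.34 and 0.40 with the others. The cells of a plate share a library and differ in depth, so these are descriptions.
The level of the 84 members had a rho of −0.13 to 0.20 with that of the subunit transcripts of the mitochondrial genome in the same cells over the 12 plates. Those transcripts were few, with plate medians of 738 to 4615 UMIs per 1000000 UMIs of a cell, both extremes in fetal liver. The part of counting error and of uneven recovery in these low rho values was not tested. With the ribosomal protein share the rho of the members' level was positive on both AGM plates (0.37 and 0.42). It was negative on all plates of fetal liver (−0.52 to −0.13) and bone marrow (−0.50 to −0.38). Both levels are shares of the same total, so a larger ribosomal share leaves less for other genes, and a negative rho is partly built in. How much was not tested. With the total UMIs of a cell the rho of the members' level was negative on AGM plates (−0.24 and −0.39). It was positive on fetal liver plates (0.24 to 0.48) and bone marrow plates (0.34 to 0.55). Cells in which Mki67, a gene of dividing cells, was seen had a higher median level than the other cells on all 5 bone marrow plates, for instance 41087 against 36346 UMIs per 1000000 on plate 5, and on 4 of 5 fetal liver plates. On both AGM plates they had a lower one, with 43852 against 47353 on plate 1 and 45612 against 48258 on plate 2. Deeper cells more often show a UMI of Mki67, and it was seen in only 6 to 18 bone marrow cells per plate.

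Fewer members were found per cell in bone marrow at equal depth. With every cell thinned to 20000 UMIs, which left out 2 AGM, 35 fetal liver and 31 bone marrow cells, the median cell had a UMI of 74 and 75 members on AGM plates. On fetal liver plates it had 73, 72, 72, 72 and 75, and on bone marrow plates 52, 58, 60, 56 and 57. The groups did not overlap between bone marrow and the others. Before thinning the means over plates were 78.0 in AGM cells, 75.9 in fetal liver cells and 64.6 in bone marrow cells. Complex I had 33.5 of 36 members per cell in AGM, 32.8 in fetal liver, 22.8 in bone marrow. Complex II had 3.5 of 4 in AGM, 3.6 in fetal liver, 2.2 in bone marrow, while complex V had 16.25 of 17 in AGM, 16 in fetal liver, 14.6 in bone marrow (means over plates). All genes showed the same order, with 3351.5 and 3376 genes per thinned cell on AGM plates, 2760 to 3586 on fetal liver plates and 1681.5 to 2062 on bone marrow plates. The part of this wider difference in the members' values was not tested.

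**Figure D5:**
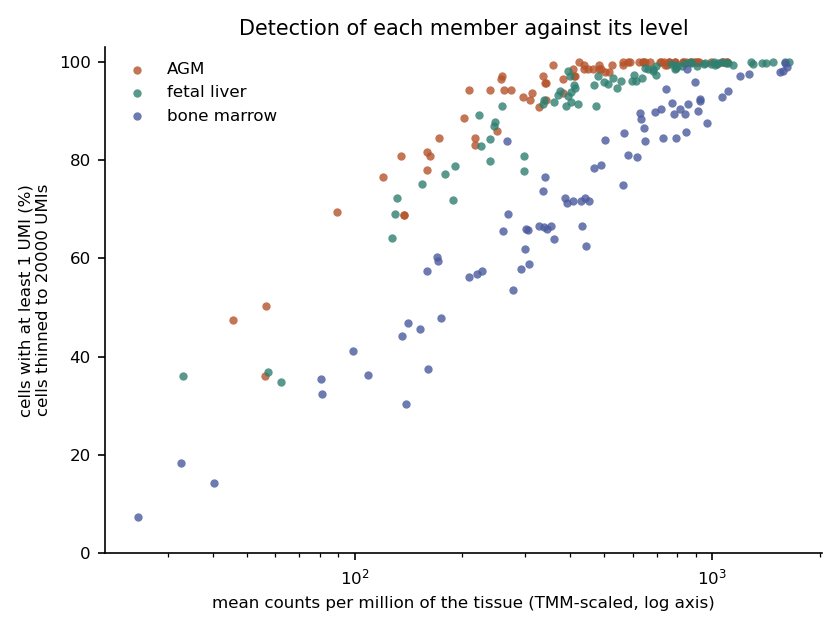
Share of cells with at least 1 UMI of a member after thinning each cell to 20000 UMIs (vertical axis, percent), against the member's mean CPM in the same tissue (horizontal axis, log scale), for members of at least 10 CPM. Colours are AGM, fetal liver and bone marrow. At like CPM the bone marrow points tend to lie below the fetal liver points, as for Ndufa1 with 66.3% of bone marrow cells at 338 CPM, against 92.1% of fetal liver cells at 338 CPM.

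The rest of the pathway was read from lists taken over whole. Of 12 tested subunits encoded by the mitochondrial genome, 1 was called higher in fetal liver than in AGM, namely mt-Co1, the catalytic subunit of complex IV (488 against 106 CPM, 2.21 ± 0.43, adjusted p = 0.00310). It was also higher in bone marrow than in AGM (277 against 106 CPM, 1.39 ± 0.41, adjusted p = 0.0395). Both calls are edgeR's, and DESeq2 called 0 of the 12 in each comparison. The list's medians were 1.84, −0.71 and 1.12 in the 3 comparisons, where all genes had 0.05, 0 and 0.04, and its summed level ran from 917 to 5608 CPM over fetal liver plates. None of 14 complex I assembly factors was called by edgeR or DESeq2 (1, 0 and 0 at an unadjusted p under 0.05, medians 0.09, −0.20 and 0.03). The same held for 9 genes of complex III and cytochrome c outside the symbol rule, which include the subunit Cyc1 and assembly factors (0, 1 and 2 at an unadjusted p under 0.05, medians −0.08, 0.15 and −0.23). It also held for 5 genes of complex V assembly and its inhibitor (0 in each, medians 0.36, −0.28 and 0.27). Of 4 complex II assembly factors Sdhaf4 was higher in fetal liver than in AGM (196 against 93.0 CPM, 1.08 ± 0.28, adjusted p = 0.0264), and the list's medians were −0.06, −0.64 and −0.16. Of 20 complex IV assembly genes Cox14 was higher in bone marrow than in AGM (534 against 307 CPM, 0.80 ± 0.25, adjusted p = 0.0477), with list medians of 0.07, −0.21 and −0.04.
The citric acid cycle, which supplies the chain, had 18 tested genes with medians of 0.02, −0.42 and −0.45. Citrate synthase, Cs, was lower in bone marrow than in AGM (72.4 against 176 CPM, −1.28 ± 0.27, adjusted p = 0.00359). Pdhb, a subunit of pyruvate dehydrogenase, was lower in bone marrow than in fetal liver (79.4 against 143 CPM, −0.85 ± 0.22, adjusted p = 0.0319) and than in AGM (−0.85 ± 0.26, adjusted p = 0.0496). No other gene of that list was called by edgeR, which had 0, 1 and 2 calls in the 3 comparisons, where DESeq2 had 1, 1 and 3 and limma on plates 4, 6 and 8.
Of 16 regulators of mitochondrial biogenesis Myc was higher in bone marrow (183 CPM) than in fetal liver (73.9 CPM, 1.31 ± 0.23, adjusted p = 0.00136) and than in AGM (45.8 CPM, adjusted p = 0.000156), and no other was called (medians −0.22, 0.10 and −0.10). Of 17 carriers and outer membrane genes Chchd10 was higher in fetal liver than in AGM (97.3 against 34.5 CPM, 1.50 ± 0.36, adjusted p = 0.0151), and in bone marrow against AGM Chchd10 was higher and Tomm40, the import pore, lower (111 against 215 CPM, −0.95 ± 0.27, adjusted p = 0.0327). The medians of that list were −0.11, −0.09 and −0.33, and fetal liver plate 5 again stood apart, with 4.73 CPM of Chchd10.
Of 9 tested genes linked to low oxygen, Cox4i2 and the glucose transporter Slc2a1 were lower in bone marrow than in fetal liver, Slc2a1 with 24.1 against 66.2 CPM (−1.46 ± 0.31, adjusted p = 0.00758). Against AGM Pdk1, a kinase that turns off pyruvate dehydrogenase, was higher (85.6 against 33.8 CPM, 1.34 ± 0.39, adjusted p = 0.0345), while Slc2a1 and Epas1 were lower. The medians of the list were 0.15, −1.35 and −1.20, which are the values of Cox4i2 itself. The list's called genes went both ways in bone marrow against AGM and were lower in bone marrow against fetal liver.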

How the data were processed

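The authors deposited 1 table per plate of UMI counts for each gene symbol in each well, with no normalization. UMI-tools, featureCounts and SAMtools and the genome mm10 are named per the submitters' processing notes. Their versions, the annotation, the strand setting and the handling of reads with several matches are not stated in the sources used here, so genes that overlap or have processed pseudogenes may share reads. Of 83 members with a position, 12 overlap another gene on the same strand and 30 one on the other strand. Of the 22307 symbols 21894 matched the mouse gene names at hand.

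Wells with at least 1000 genes, 3000 UMIs and under 20% mitochondrial UMIs were taken as cells. Since cells were sorted singly, doublets were not called. UMIs of kept cells were summed per origin code into 5 libraries of 6086932 to 24699454 UMIs. The quasi-likelihood test of edgeR 4.0.16 (R 4.3.3) compared them after TMM normalization and filterByExpr, in 1 model of the 3 tissues. Residual degrees of freedom were 2, prior degrees of freedom 18.0, and the common biological coefficient of variation was 0.619. AGM has 1 library, which was assumed to vary like the others. The error after a log2 fold change is its size divided by the square root of the F statistic and only approximates a standard error. A gene was called at an adjusted p under 0.05. CPM of a tissue are averages over its libraries, and plate CPM use a TMM factor of each plate. UMIs were not divided by transcript length.

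The level of a complex in a cell is its summed UMIs per 1000000 UMIs of that cell, described by the median of each plate, and got no test. Shares of cells with a UMI have exact (Clopper-Pearson) 95% intervals that cover counting error only. The test was run on simulated counts with known changes first. Alternatives used DESeq2 1.42.0, limma 3.58.1 with plates as libraries, other scalings, filters and cell thinning, and each plate or code left out.

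The members and all gene lists were chosen with earlier results of these data known. Text names the called members of at least 50 CPM (up to 4 in each direction), the 2 most abundant members of each complex, the isoform pairs, all of complex II, and up to 3 called genes of each other list. Promoters are RefSeq's, positions GENCODE's, both on GRCm38. Figures were drawn with matplotlib 3.10.9.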

Additional observations from a re-analysis of the deposited data

Results flagged for a closer look

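Among 66 sets of 5 plates (the levels of the complexes, the members found per cell and the 28 named members, in fetal liver or in bone marrow), 8 held a plate far from the other 4 of its tissue by Dixon's criterion. Chance alone meets it in about 1 of 20 sets of normally spread values. Where the other 4 plates had 0 (Cox6a2, Cox8b and Cox7b2), any UMI on the last plate met the criterion, and Cox7a1 was close to this. The 8 are therefore not read as an excess over that rate. On fetal liver plate 5 Cox7a2l had 1130.1 CPM, against 675 to 763 CPM on the other fetal liver plates, and Atp5g2 had 562 CPM, against 339.9 to 398 CPM. On bone marrow plate 5 Cox4i2 had 51.1 CPM, against 6.75 to 18.8 CPM on the other bone marrow plates, and Cox7a1 had 5.51 CPM, against 0 to 0.0978 CPM. On bone marrow plate 2 Cox6a1, the common isoform of subunit 6a, had 1025 CPM, against 880.2 to 905 CPM. On bone marrow plate 1 the muscle isoforms Cox6a2 and Cox8b had 4.11 CPM and 0.685 CPM, where the other bone marrow plates had 0. On fetal liver plate 2 Cox7b2 had 0.206 CPM, which is 1 UMI, where the others had 0.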

How the results depend on the processing

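The direction of each median over members, of the level of all members and of each call of a named member stayed the same under all alternatives run. Single complexes, which got no test, did change sides: in bone marrow against AGM complex IV (−0.16 on the log2 scale) was 0.083 with plate TMM factors and 0.058 over the reduced total, and complex III (−0.19) was 0.050 with plate TMM factors, while in fetal liver against AGM complex III (0.027) was −0.0044 with thinned cells and also turned negative without AGM plate 1, and complex I (0.012) turned negative without AGM plate 2 and without fetal liver plate 5. The counts of called members moved with most choices, and the cause was not tested. The count in fetal liver against AGM (1) was 0 with library size alone, 24 with only the tissues compared, 19 with limma on plates and 0 with thinned cells, and leaving out single plates or codes gave 0 to 21, with 21 and 18 without the first and the second bone marrow code and 0 without AGM plate 1, fetal liver plate 4, bone marrow plate 5 or the second fetal liver code. The count in bone marrow against fetal liver (3) was 8 with DESeq2, 5 without a filter, 1 with only the tissues compared, 37 with limma, 1 with thinned cells and 5 with a robust spread, and leave-outs gave 0 (fetal liver plate 4) to 30 (second bone marrow code). The count in bone marrow against AGM (1) was 0 with DESeq2's size factors, 2 without a filter, 0 with only the tissues compared, 15 with limma (8 higher and 7 lower), 0 with stricter cells and 0 with thinned cells, and leave-outs gave 0 to 13 (first bone marrow code).

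The median in fetal liver against AGM (0.27) was 0.041 with library size alone and 0.21 to 0.41 in leave-outs. The median in bone marrow against fetal liver (−0.31) ran from −0.45 to −0.22 in leave-outs. The median in bone marrow against AGM (−0.08) was −0.34 with library size alone and −0.13 to −0.0023 in leave-outs. The level of all members in fetal liver against AGM (0.065 on the log2 scale) was 0.18 over the reduced total and 0.30 with plate TMM factors, and 0.040 to 0.090 in leave-outs. In bone marrow against AGM (−0.24) it was −0.071 and −0.0015, and −0.27 to −0.21 in leave-outs. In bone marrow against fetal liver (−0.30) leave-outs gave −0.33 to −0.27. Members found per cell changed with depth. AGM had 74.5 at 20000 UMIs, 70.0 at 10000 and 78.0 without thinning, fetal liver 72.8, 68.4 and 75.9, and bone marrow 56.6, 51.6 and 64.6.

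Of the values for named genes and single complexes, 1900 kept their side or stayed within the spread between plates, 53 lost the threshold and 80 passed it. Another 18, all levels of complexes in comparisons with AGM over the reduced total or with plate TMM factors, moved by more than that spread. Differences that were not called could change sign, as for Cox6b2 in bone marrow against AGM in 11 of 25 alternatives and Ndufa2 in bone marrow against fetal liver in 8. No paired analysis was possible because plate numbers only count the plates of an origin code, and the fitted libraries are sums over the plates of a code. AGM has 1 library, the libraries differ in depth, and Sdhb and Uqcrh lay near the threshold, so a call there rests on the setting: without the first fetal liver code Sdhb had an adjusted p of 0.469, and without fetal liver plate 4 Uqcrh had 0.388.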
